A study of Mus musculus with 2 samples.

Results

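Scavenger and efferocytosis receptors are surface proteins by which macrophages take up modified lipoproteins, glycoproteins, protein complexes and dying cells. The 10 genes described here are Lyve1, Timd4, Cd163, Folr2, Mrc1, Stab1, Msr1, Marco, Mertk and Axl, chosen by name among 27998 genes of the count tables. All 10 were found in the tables by symbol.

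Tissue-resident macrophages of fat pads are known for high levels of Lyve1, Timd4, Cd163, Folr2 and Mrc1, while macrophages that gather around dying adipocytes in obesity carry lipid-handling genes and the tetraspanin Cd9. Efferocytosis, the uptake of apoptotic cells, begins with phosphatidylserine on the dying cell. Some receptors bind this lipid directly, and the kinases Mertk and Axl bind it through the secreted bridging proteins Gas6 and Pros1.

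The stromal vascular fraction of mouse epididymal fat, the cells left once adipocytes are removed, was profiled by droplet-based single-cell RNA sequencing with the 10x 3′ v3 chemistry. A library came from C57BL/6 mice kept on a low fat diet (LFD) and another from C57BL/6 mice kept on a high fat diet (HFD), in each case for 24 wk from 6 wk of age. The study's methods call the strain C57BL/6J and the mice male, and give their age at isolation as 24 wk. A free-text line of the sample labels names the low fat diet for both libraries, and the treatment entry of each sample was followed. The comparison asks how the stroma of the fat pad differs after long HFD feeding. There was 1 library per diet and the number of mice behind each is not given, so differences between diets cannot be told apart from differences between libraries, and none was tested.

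The LFD library held 1113 barcodes with 7356278 unique molecular identifiers (UMIs, each a transcript counted once) and a median of 6197 UMIs per barcode. The HFD library held 1144 barcodes with 8412325 UMIs and a median of 6486. No barcode sequence was shared (0). Barcodes with at least 200 genes numbered 1057 on LFD and 1117 on HFD, and they were sorted by a few genes that are not among the receptors. At least 10 UMIs of C1qa, C1qb and C1qc together made a macrophage, at least 10 UMIs of Dcn a fibroblast, and at least 3 UMIs of Cdh5 and Cldn5 together an endothelial barcode. Those that met more than 1 rule, 14 on LFD and 26 on HFD, were set apart as mixed. Macrophages were divided further by any Cd9 UMI and by at least 2 UMIs of Cd209f and Cd209d together.

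Macrophages made up 21.8% of LFD barcodes (230) and 28.7% of HFD barcodes (321), with medians of 6328 and 6915 UMIs. Fibroblasts took 35.7% (377) and 26.2% (293), and endothelial barcodes 14.1% (149) and 18.5% (207). Among macrophages, 83.0% were Cd209-positive on LFD (77.6 to 87.7%, exact Clopper-Pearson 95% interval) and 33.3% on HFD (28.2 to 38.8%). Cd9-positive barcodes were 1.74% of LFD macrophages (0.476 to 4.39%) and 36.4% of HFD macrophages (31.2 to 42.0%). Classes assigned after each barcode was thinned to 1000 UMIs, with at least 3 C1q UMIs for a macrophage, gave shares of 0.441 and 12.5%. Depth and threshold changed together there. The LFD library had 4 Cd9-positive macrophages, too few to describe. All intervals here and below are exact, at 95%, and cover counting error only.

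Markers that played no part in the sorting were read in each class. A list of 6 macrophage genes (Adgre1, Cd68, Csf1r, Fcgr1, Lyz2 and Ctss) summed to 10664 CPM (UMIs of the genes per 1000000 UMIs of the class) in LFD macrophages and 13687 CPM in HFD macrophages, all 6 were detected in both, and Lyz2 was the most abundant. In fibroblasts the list summed to 79.1 and 37.8 CPM and in endothelial barcodes to 32.1 and 53.5 CPM, with Adgre1 at 0 in each. The 6 fibroblast genes, led by Col3a1, summed to 7244 and 15743 CPM in the fibroblast class. Of the endothelial class the 6 endothelial genes, led by Gpihbp1, made up 6206 and 6115 CPM. That class also carried mural genes at 1670.3 and 1812 CPM, led by Rgs5, and adipocyte genes at 1759.8 and 376 CPM, led by Car3. The fibroblast class held mesothelial genes at 816 and 509 CPM. The part of these other cell types in the results below was not tested except where values without them are given.

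The genes lie apart in the genome (GRCm38 coordinates) and have different ligands. Lyve1 (ENSMUSG00000030787), a hyaluronan receptor shared by lymphatic endothelium and some resident macrophages, is on chromosome 7 from 110850607 to 110863239 (minus strand). Timd4 (ENSMUSG00000055546), which binds phosphatidylserine on apoptotic cells, is on chromosome 11 from 46810800 to 46844332 (plus strand). Cd163 (ENSMUSG00000008845), the receptor for haptoglobin-haemoglobin complexes, is on chromosome 6 from 124304656 to 124330527 (plus strand). Folr2 (ENSMUSG00000032725), a folate receptor anchored by a lipid, is on chromosome 7 from 101839988 to 101857194 (minus strand). Mrc1 (ENSMUSG00000026712), the mannose receptor for glycoproteins and collagen fragments, is on chromosome 2 from 14229392 to 14332057 (plus strand). Stab1 (ENSMUSG00000042286), a large scavenger receptor of macrophages and sinusoidal endothelium that also binds phosphatidylserine, is on chromosome 14 from 31139013 to 31168641 (minus strand). Msr1 (ENSMUSG00000025044) and Marco (ENSMUSG00000026390) are class A scavenger receptors for modified lipoproteins and microbial surfaces, on chromosome 8 from 39581685 to 39642673 and on chromosome 1 from 120474538 to 120505024 (both on the minus strand). The kinase Mertk (ENSMUSG00000014361), which drives uptake of apoptotic cells, is on chromosome 2 from 128698956 to 128802894 (plus strand). Its relative Axl (ENSMUSG00000002602) is on chromosome 7 from 25757273 to 25788705 (minus strand).

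Macrophages held most UMIs of every receptor that was detected in both libraries, except Axl. For Folr2 the macrophage share of all UMIs was 96.5% on LFD and 96.3% on HFD, and for Cd163 it was 94.6 and 96.2%. Lyve1 stood at 94.1 and 87.6%, the remainder on HFD being mostly endothelial (10.8%). Mrc1 was at 92.3 and 90.2%, Msr1 at 92.5 and 88.4%, and Timd4 at 90.6 and 70.7%. Stab1 and Mertk lay partly in endothelial barcodes on both diets. Of Stab1 UMIs, 81.3% on LFD and 78.1% on HFD were in macrophages and 10.9 and 13.5% in endothelial barcodes. Mertk had 65.9 and 64.5% in macrophages, 12.1 and 21.7% in endothelial barcodes and 13.6 and 4.93% in fibroblasts. Axl was mainly a fibroblast transcript, with 90.1% of its UMIs there on LFD and 63.2% on HFD, against 3.84 and 23.3% in macrophages.

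**Figure D1:**
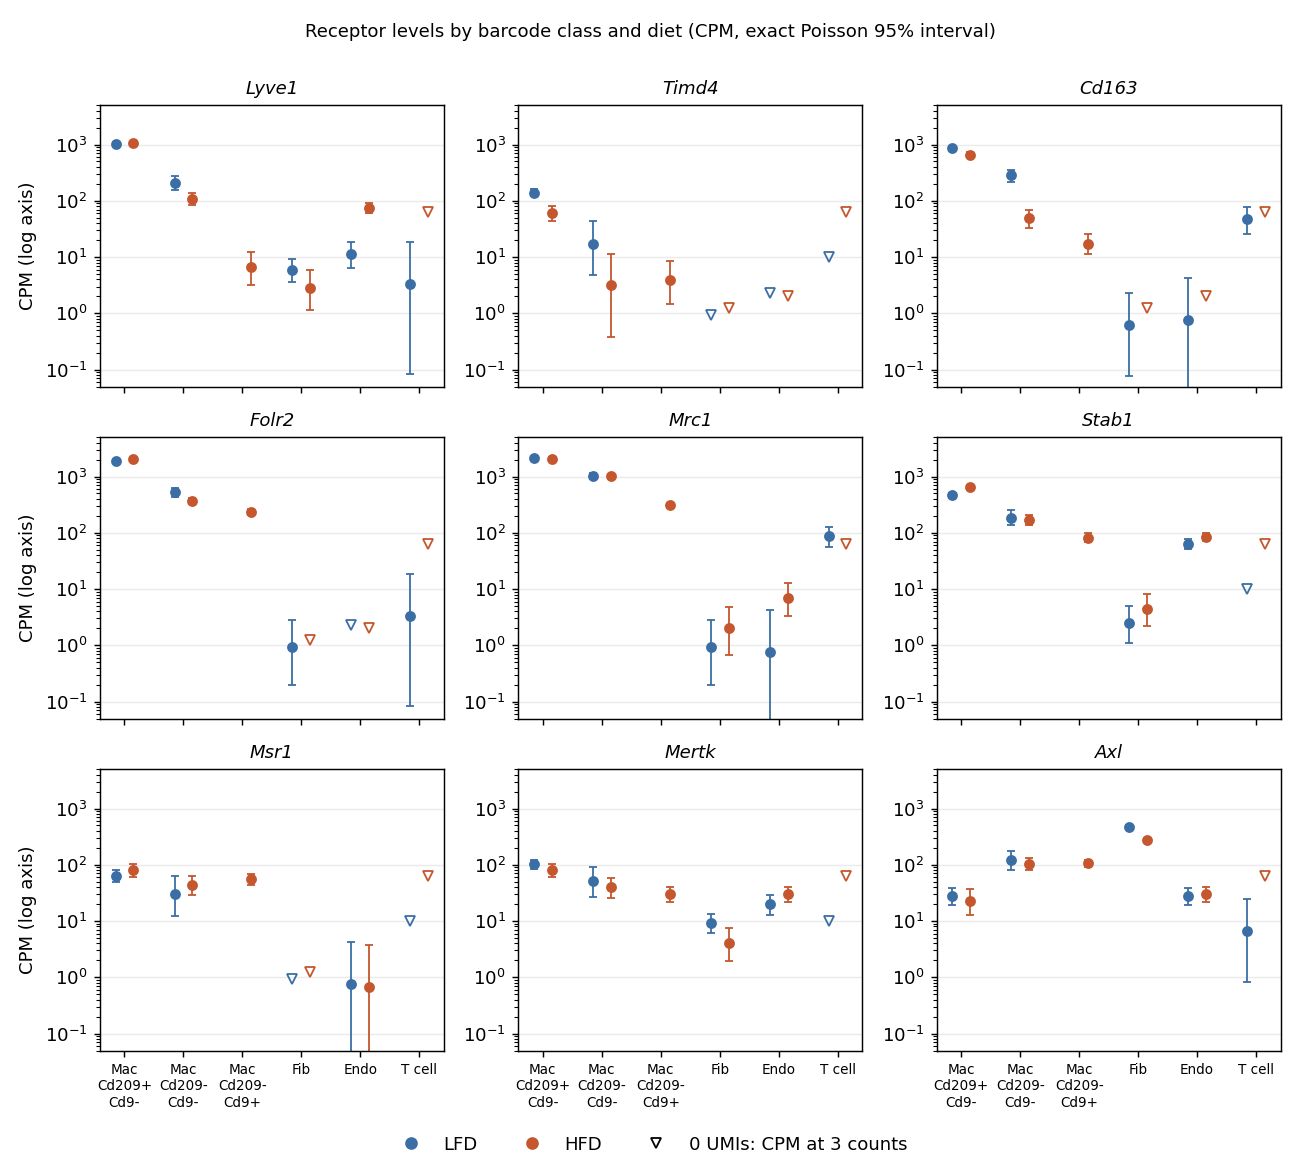
Level of 9 of the 10 receptors (Marco is left out) in CPM on a log axis, for 3 groups of macrophages, for fibroblasts, for endothelial barcodes and for T cells, with LFD in blue and HFD in orange. Points are summed UMIs scaled to the UMIs of the class, bars are exact Poisson 95% intervals, open triangles mark 0 UMIs at the level of 3 counts, and the LFD group with Cd9 alone is not drawn because it holds 2 barcodes. Lyve1 stands at 1035 and 1055 CPM in Cd209-positive macrophages without Cd9 and at 6.64 CPM in HFD macrophages with Cd9 alone.

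Most receptors of resident macrophages were lower in HFD than in LFD macrophages. Among the 9 receptors with at least 50 UMIs over both libraries, 6 were at least 2-fold lower on HFD and 0 at least 2-fold higher, where 5.9% of 7158 genes were that much lower and 5.36% that much higher. Cycling genes (4, led by Mki67) summed to 141 CPM in LFD and 294 CPM in HFD macrophages, and without the 4 LFD and 26 HFD barcodes with at least 3 UMIs of Mki67 and Top2a, left out after the data had been seen, 4 receptors were at least 2-fold lower. There Mrc1 was 1.91-fold, Mertk 1.93-fold and Folr2 2.01-fold lower. With the study's limits on genes and mitochondrial UMIs, under which fewer receptors reached 50 UMIs, the count of lower receptors was also 4. It was 4 again with thinned classes and with the mean of each barcode's CPM. Adipocyte genes, led by Car3, summed to 163 CPM in LFD and 64.2 CPM in HFD macrophages, and their part was not tested. The median log2 ratio, HFD over LFD, was -1.08 for the 9 receptors and -0.01 for all genes. Timd4, the phosphatidylserine receptor, differed most, with 117 CPM on LFD (174 UMIs) and 18.1 CPM on HFD (53 UMIs), 6.46-fold lower (4.73 to 8.97). Cd163, which clears haemoglobin complexes, stood at 756 CPM on LFD (712 to 801) and 192 CPM on HFD (177 to 209), 3.93-fold lower (3.55 to 4.35). For the hyaluronan receptor Lyve1 the levels were 883 CPM on LFD (836 to 933) and 302 CPM on HFD (283 to 323), a 2.92-fold difference (2.68 to 3.19).

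Folr2, Mrc1, Mertk and Stab1 had smaller fold differences. Folr2 stood at 1633 CPM on LFD (2427 UMIs) and 733 CPM on HFD (2146 UMIs), 2.23-fold lower (2.10 to 2.36). The mannose receptor Mrc1 stood at 1907 CPM (2834 UMIs) and 921 CPM (2696 UMIs), 2.07-fold lower (1.96 to 2.18). Mertk, at 94.9 CPM (141 UMIs) and 44.8 CPM (131 UMIs), was 2.12-fold lower (1.66 to 2.71). These 3 intervals reach to either side of 2-fold or lie close to it. Stab1 was short of 2-fold, with 415 CPM on LFD, 243 CPM on HFD and a ratio of 0.585 (0.525 to 0.653).

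The class A scavenger receptors and Axl did not share this direction. Msr1 was near equal at 57.9 CPM (86 UMIs) and 60.1 CPM (176 UMIs), a ratio of 1.04 (0.799 to 1.36). Marco had 0 UMIs in LFD macrophages, which allows up to 2.02 CPM (3 counts, the limit given for every 0 below), and 8 UMIs in HFD macrophages, all in a single Cd9-positive barcode of 14308 UMIs. Set against 3 counts in the LFD class the HFD level would be 1.35-fold higher, but the exact lower limit of the ratio is 0.867, below equality. Axl was higher on HFD, at 43.1 CPM (64 UMIs) and 85.4 CPM (250 UMIs), a ratio of 1.98 (1.50 to 2.65), just short of 2-fold. Leaving out the barcode richest in Axl in each library, or moving the C1q threshold to 20 or to 5 UMIs, took Axl past 2-fold.

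Counting barcodes gave the same order between diets as counting UMIs for the 6 lower receptors. Without thinning, 72.6% of LFD and 34.3% of HFD macrophages had a Lyve1 UMI, 70% and 34.9% a Cd163 UMI, and 34.3 and 10.6% a Timd4 UMI. Each barcode was then thinned to 1000 UMIs, which left out 5 LFD and 1 HFD macrophages. After thinning, Lyve1 was seen in 45.3 and 20.9%, Cd163 in 45.3 and 17.5%, and Timd4 in 10.7 and 2.81%. Folr2 was seen in 91.7 and 68.5% before thinning and in 68.9 and 42.5% after it, and Mrc1 in 96.5 and 91.6% before and in 80 and 54.1% after. At full depth nearly all macrophages of both libraries had Mrc1, so that share is close to its ceiling. Its median was 12 UMIs per macrophage on LFD and 7 on HFD. Stab1 was seen in 78.7 and 57.6% before thinning and in 33.8 and 21.3% after it. Mertk was seen in 44.3 and 28.0% before and in 10.2 and 3.44% after. Msr1 was level in both ways, at 27.4 and 29.6% before and 4.89 and 4.38% after. Axl was seen in 18.3 and 36.4% before thinning and in 4.89 and 6.56% after it, the latter on 11 and 21 barcodes (2.47 to 8.58% and 4.11 to 9.86%).

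T cells, which should lack these receptors, gave the level that stray RNA or mixed droplets can produce. The class (at least 2 UMIs of Cd3d, Cd3e and Cd3g) had 70 LFD barcodes with a median of 2710 UMIs and 21 HFD barcodes with a median of 1781. On LFD, Mrc1 was seen in 10% of them, Cd163 in 5.71%, Axl in 2.86%, and Lyve1 and Folr2 in 1.43% each. The other 5 receptors were seen in 0 of 70, and on HFD all 10 in 0 of 21, which at 3 counts allows up to 4.29% and 14.3% (exact upper limits 5.13 and 16.1%). The LFD class carried the macrophage marker list at 4611 CPM, led by Lyz2 at 4107 CPM, and the HFD class at 85.2 CPM. On LFD the macrophage shares named above, before thinning, exceeded those in T cells, whose barcodes are shallower. On HFD the limit of 14.3% lies above the macrophage share of Timd4 (10.6%), so these T cells set no lower level for it.

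Resident-type macrophages, marked by Cd209f and Cd209d, carried most UMIs of Lyve1, Timd4, Cd163, Folr2, Mrc1 and Stab1 on both diets. On LFD, 7 of the 9 receptors tested were at least 2-fold higher in Cd209-positive than in other macrophages and 1 was at least 2-fold lower, beside 10% and 5.58% of 3976 genes. Timd4 and Msr1 among the 7, and Axl, reached 50 UMIs only through the group where they are high, so their calls follow from that limit and the LFD count is not read against these shares. On HFD the counts were again 7 and 1, beside 7.88% and 8.52% of 5877 genes, with Timd4 in the same position. Lyve1 was 5.65-fold higher in Cd209-positive macrophages on LFD (4.23 to 7.70), from 183 to 1033 CPM. On HFD it was 28.1-fold higher (22.3 to 35.9), from 36.5 to 1025 CPM, and 33 of the 78 UMIs in the lower group were in a single barcode. The level in the positive group was thus close on both diets, while the other macrophages held less on HFD.

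Cd163 was 3.43-fold higher on LFD and 24.1-fold on HFD, with 864 and 643 CPM in the Cd209-positive and 252 and 26.6 CPM in the Cd209-negative macrophages. For Timd4 the ratios were 9.11 (3.49 to 33.8, with 4 UMIs in the lower group) and 15.3 (7.13 to 37.5). Folr2 was 4.05-fold and 7.17-fold higher in the positive group, and Stab1 2.86-fold and 5.65-fold. Mrc1, the least divided of the resident receptors, differed 2.18-fold on LFD and 3.90-fold on HFD. Msr1 was 2.09-fold higher on LFD, where 8 UMIs in the lower group leave an interval of 1.01 to 5.01, and 1.55-fold higher on HFD. For Mertk the ratios were 1.94 (1.12 to 3.66) and 2.37 (1.65 to 3.39). Marco had 0 UMIs in Cd209-positive and 8 in other HFD macrophages.

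Axl ran the other way in both libraries. It stood at 27.8 CPM in Cd209-positive and 114 CPM in other macrophages on LFD, 4.12-fold lower in the positive group (2.43 to 6.93). On HFD the levels were 31.8 and 105 CPM, 3.31-fold lower (2.19 to 5.23). Axl was the 1 receptor that counted as lower in the Cd209-positive group on HFD. It counted so on LFD too, but that call follows from the UMI limit, as stated above, and nothing is read from it. With the study's limits on genes and mitochondrial UMIs Axl did not count as lower on either diet. The Cd209-negative, Cd9-negative macrophages also carried the monocyte marker Ccr2 at 1099 CPM on LFD and 616 CPM on HFD, against 70.3 and 8.52 CPM in the Cd209-positive, Cd9-negative group. The other 4 monocyte genes were at or near 0 in the former group, with Ly6c2 at 0 and 2 UMIs, Plac8 at 0 and 9, Vcan at 1 and 2 and Chil3 at 0 on both diets. The part of monocytes in the Axl values was not tested.

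Cd9-positive macrophages, found almost only on HFD, held less of the resident receptors than other HFD macrophages. Of 9 receptors tested in HFD macrophages, 6 were at least 2-fold lower with Cd9 than without and 0 at least 2-fold higher, beside 6.65% and 5.65% of 5877 genes. Timd4 (8 and 45 UMIs) reached 50 UMIs only through the macrophages without Cd9, where it is high. Fewer receptors counted as lower with the study's limits on genes and mitochondrial UMIs, under which fewer also reached 50 UMIs. Cycling genes summed to 439 CPM with Cd9 alone and to 0 CPM with both marks. Without Cd9 they summed to 144 CPM in Cd209-negative and 153 CPM in Cd209-positive macrophages, and their part was not tested. Lyve1 had 606 CPM without and 46.6 CPM with Cd9, 13.0-fold lower (10.2 to 16.7). Cd163 was 9.10-fold lower (7.02 to 11.97) and Timd4 6.68-fold lower (3.12 to 16.4). Folr2, Stab1 and Mrc1 were 4.41-, 4.37- and 4.33-fold lower. The median depth of the Cd9-positive macrophages was 9057 UMIs against 6460.5 without Cd9. Mertk had a ratio of 0.520 (0.358 to 0.749), Msr1 of 0.922 (0.679 to 1.25) and Axl of 1.73 (1.32 to 2.27).

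Because few Cd9-positive macrophages were also Cd209-positive (8 of 117), the Cd9 ratio was taken again among Cd209-negative HFD macrophages alone, a comparison chosen after the data had been seen. Here 4 of 8 receptors tested were at least 2-fold lower with Cd9 and 0 at least 2-fold higher, beside 3.86% and 5.89% of 4842 genes. Lyve1 and Cd163 among the 4 reached 50 UMIs only through the group where they are high, so nothing is read from this count. The monocyte genes, led by Ccr2, summed to 636 CPM without and 98.9 CPM with Cd9 in this comparison, and the cycling genes, led by Mki67, to 144 and 439 CPM, and their part was not tested. Lyve1 was 16.2-fold lower (8.28 to 35.2), with 10 UMIs in 2 of 109 Cd9-positive barcodes. Of the 68 Lyve1 UMIs without Cd9, 33 were in a single barcode, which the interval does not take into account. Mrc1 was 3.29-fold lower (2.92 to 3.72), from 1015 to 308 CPM, and Cd163 and Stab1 were 2.83-fold and 2.05-fold lower. Folr2 was still well detected in the Cd9-positive group, at 235 CPM against 373 CPM, a ratio of 0.631 (0.534 to 0.747). Msr1, at 55.8 and 44.2 CPM, had a ratio of 1.26 (0.814 to 2.01). The higher Axl level with Cd9 was gone in this comparison, with 106 and 104 CPM and a ratio of 1.01 (0.756 to 1.37). Timd4 had a ratio of 1.26 (0.226 to 12.8) on 6 against 2 UMIs, the 6 being in a single barcode. Mertk had a ratio of 0.757 (0.454 to 1.29), and the 8 UMIs of Marco lie in this Cd9-positive group.

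The diets were then compared within groups of macrophages with the same marks. Macrophages with neither mark were not alike on both diets in other genes. There the lipid receptor Trem2 had 17.4 CPM on LFD and 358 CPM on HFD, and the cycling genes 317 and 144 CPM. In Cd209-positive, Cd9-negative macrophages (189 on LFD, 99 on HFD), 1 of 9 receptors tested was at least 2-fold lower on HFD and 0 at least 2-fold higher, beside 2.22% and 0.92% of 4675 genes. The median log2 ratio of the receptors was -0.02. Lyve1 had 1035 CPM on LFD (978 to 1094) and 1055 CPM on HFD (980.2 to 1133), a ratio of 1.02 (0.929 to 1.12). Mrc1 had 2115 and 2091 CPM, a ratio of 0.989 (0.927 to 1.05). The hyaluronan and mannose receptors were thus within counting error of equality in resident-type macrophages of the 2 libraries.

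Timd4 was the receptor past 2-fold within this group. It had 139.7 CPM on LFD (169 UMIs) and 61.0 CPM on HFD (43 UMIs), 2.29-fold lower (1.63 to 3.28). With the study's limits on genes and mitochondrial UMIs no receptor counted as lower here. Cd163 was lower by less, at 866 and 663 CPM, a ratio of 0.766 (0.685 to 0.855). Stab1 was higher on HFD, at 470.4 and 642 CPM, a ratio of 1.36 (1.20 to 1.55), and Folr2 slightly so, at 1883 and 2065 CPM, a ratio of 1.10 (1.03 to 1.17). Intervals for Msr1 (0.869 to 1.79), Mertk (0.555 to 1.07) and Axl (0.417 to 1.50) took in equality. In this group the cycling genes summed to 40.5 CPM on LFD and 153 CPM on HFD. The adipocyte genes summed to 177 and 96.5 CPM, and the part of both was not tested.

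The Cd209-negative, Cd9-negative macrophages (37 on LFD, 105 on HFD) gave 1 of 6 receptors tested as at least 2-fold lower on HFD and 0 as at least 2-fold higher, beside 2.5% and 3.93% of 2444 genes, with a median log2 ratio of -0.37. The count of lower receptors was 4 with classes from thinned barcodes, and 2 with overlapping barcodes kept or with the mean CPM of single barcodes. Cd163 was that receptor and reached 50 UMIs only through LFD, where it is high, so nothing is read from the count. It had 282 CPM on LFD (65 UMIs) and 48.9 CPM on HFD (31 UMIs), 5.77-fold lower (3.71 to 9.16). Lyve1 had 209 and 107 CPM, 1.94-fold lower (1.31 to 2.85), and 33 of its 68 UMIs on HFD were in a single barcode. Mrc1 had 1034 and 1015 CPM (ratio 0.982, 0.845 to 1.14). Axl had 122 and 104 CPM, with a ratio of 0.856 (0.543 to 1.38). Folr2 had 530.1 and 373 CPM, 1.42-fold lower (1.13 to 1.78), and Stab1 187 and 169 CPM, a ratio of 0.904 (0.629 to 1.32). Timd4 (4 and 2 UMIs), Msr1 (7 and 28) and Mertk (12 and 25) had too few UMIs to be counted, and Marco had 0.

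**Figure D2:**
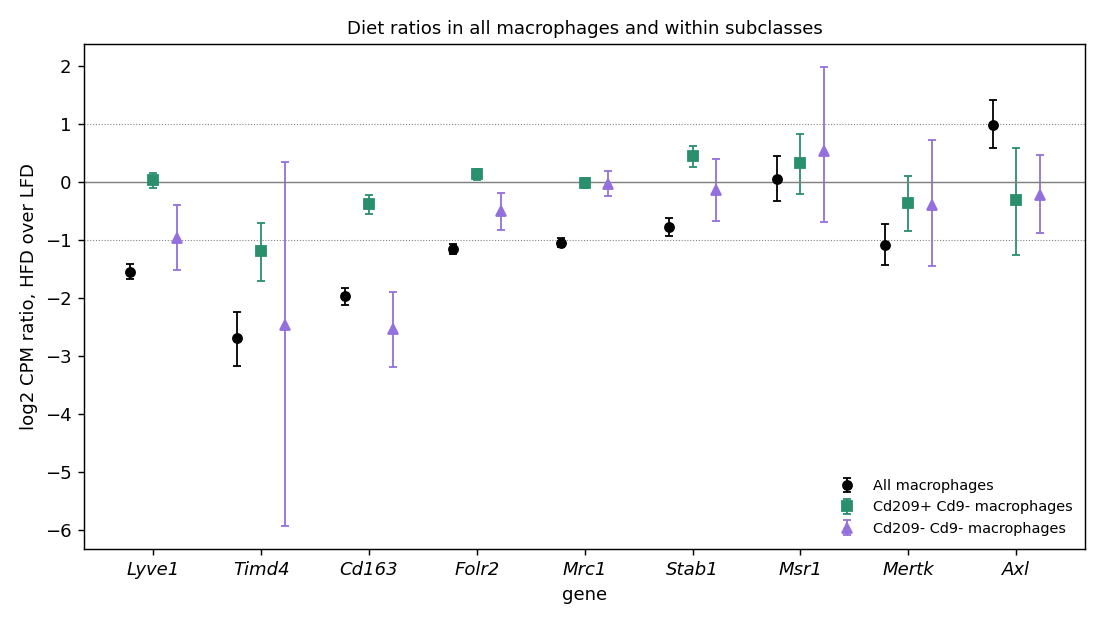
Ratio of HFD to LFD CPM on a log2 axis for 9 receptors, in all macrophages (black circles), in Cd209-positive, Cd9-negative macrophages (green squares) and in macrophages with neither mark (purple triangles). Bars are exact 95% intervals for counting error, dotted lines mark 2-fold, and Lyve1 lies at -1.55 in all macrophages and at 0.03 in the Cd209-positive group.

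Macrophage makeup was set to that of LFD by averaging the HFD values of the 4 groups with their LFD shares of macrophage UMIs. This step was chosen after the data had been seen. It takes groups with the same marks as alike on both diets, although those with neither mark differed in Trem2. Each of the LFD Cd9-positive groups held 2 barcodes. Cd209-positive, Cd9-negative macrophages held 81.4% of macrophage UMIs on LFD and 24.1% on HFD, and macrophages with Cd9 alone 2.16 and 51.5%. With the LFD shares, the HFD level of Lyve1 was 883 CPM beside 302 CPM as measured, and its log2 ratio to LFD 0.00 beside -1.55. Msr1 was at 73.7 CPM (log2 ratio 0.35), Mrc1 at 1879 CPM (-0.02) and Folr2 at 1756 CPM (0.10 beside -1.16). Cd163 was lower still at 552 CPM (-0.45), Mertk at 72.0 CPM (-0.40) and Timd4 at 50.5 CPM (-1.21). Stab1 was above its LFD level at 553 CPM (0.41) and Axl below at 38.0 CPM (-0.18). Of the 6 receptors that were at least 2-fold lower in all macrophages together, Timd4 alone remained so at the LFD makeup. What set the makeup of each library was not tested.

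The number of kinds of receptor seen in a macrophage was lower on average on HFD. Over barcodes thinned to 1000 UMIs, a macrophage showed on average 3.04 of the 10 receptors on LFD and 1.74 on HFD, and 3.56% and 25% showed 0. In Cd209-positive, Cd9-negative macrophages the average was 3.24 on LFD and 3.33 on HFD. It was 2.03 and 1.15 in macrophages with neither mark and 0.771 in HFD macrophages with Cd9 alone. T cells gave 0.0746 on LFD and 0 on HFD.

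In thinned macrophages, Lyve1 was seen in a larger share of those with Folr2, Cd163, Timd4 or Mrc1 than of those without. With a Folr2 UMI, 44.1% of HFD macrophages also had a Lyve1 UMI (35.6 to 52.9%), and without it 3.80% (1.54 to 7.68%). On LFD these shares were 51.6 and 31.4%. For Lyve1 with and without Cd163 they were 62.5 and 12.1% on HFD and 52.0 and 39.8% on LFD. Timd4-positive macrophages had Lyve1 in 8 of 9 on HFD and 15 of 24 on LFD, and those without Timd4 in 59 of 311 and 87 of 201. With and without Mrc1, Lyve1 was seen in 46.1 and 42.2% on LFD and in 32.4 and 7.48% on HFD. On LFD the intervals with and without overlapped for each of Folr2, Cd163, Timd4 and Mrc1. For Timd4 they were 40.6 to 81.2% and 36.3 to 50.4%. Axl was seen in 1 of 102 Lyve1-positive and 10 of 123 Lyve1-negative LFD macrophages, and in 1 of 67 and 20 of 253 on HFD. Mertk was seen in 0 of 11 LFD and 0 of 21 HFD macrophages with Axl, and in 23 of 214 and 11 of 299 without it, too few to tell these apart at this depth. Barcodes of a library share its depth and free RNA, so these shares are a description.

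Axl, a receptor kinase bound by Gas6, was highest in fibroblasts. Fibroblasts had 475 CPM on LFD (451 to 499.7; 1501 UMIs) and 275 CPM on HFD (255 to 297; 677 UMIs), a log2 ratio of -0.79, or 1.72-fold lower (1.57 to 1.89). At 2-fold, 0 of the 1 receptor tested counted as higher or lower, beside 1.29% and 2.26% of 8357 genes. An Axl UMI was seen in 84.1% of LFD and 75.4% of HFD fibroblasts, with medians of 8500 and 7908 UMIs per barcode. After thinning, which left out 5 LFD and 2 HFD fibroblasts, the shares were 33.1 and 17.5%. The fibroblast level exceeded the macrophage level 11.0-fold on LFD (8.59 to 14.4) and 3.22-fold on HFD (2.79 to 3.74). Cycling genes summed to 1.27 CPM in LFD and 72.4 CPM in HFD fibroblasts, and their part in the Axl values was not tested.

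Fibroblasts rich in Pi16, a gene of early progenitors in this tissue, held more Axl than the others. In this split, chosen after the data had been seen, barcodes with mesothelial markers were first set aside (28 on LFD and 14 on HFD) and had 114 and 57.9 CPM of Axl. Fibroblasts with at least 3 Pi16 UMIs had 749 CPM on LFD (103 barcodes) and 522 CPM on HFD (41 barcodes). Those with fewer had 408 CPM (246 barcodes) and 242 CPM (238 barcodes). Axl was 1.83-fold higher in the Pi16-rich fibroblasts on LFD (1.65 to 2.03) and 2.16-fold on HFD (1.82 to 2.55). Both groups were lower on HFD than on LFD. Mertk had 9.18 CPM in fibroblasts on LFD (29 UMIs) and 4.07 CPM on HFD (10 UMIs). Timd4, Msr1 and Marco had 0 UMIs in fibroblasts, which allows up to 0.949 CPM on LFD and 1.22 CPM on HFD, and Lyve1, Cd163, Folr2, Mrc1 and Stab1 had 19 or fewer on either diet.

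**Figure D3:**
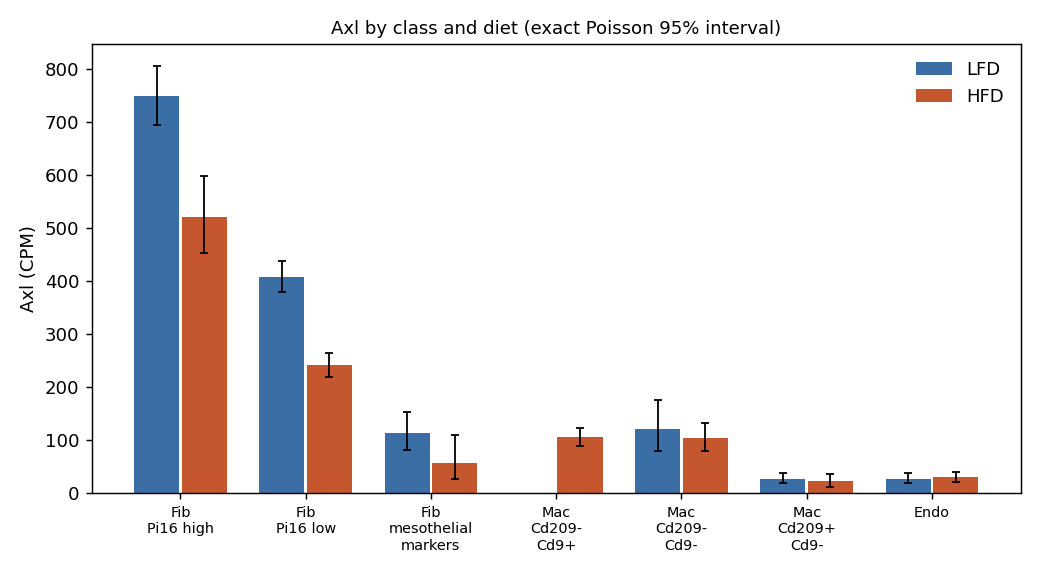
Axl in CPM for 3 groups of fibroblasts, 3 groups of macrophages and endothelial barcodes, with LFD in blue and HFD in orange. Bars start at 0, error bars are exact Poisson 95% intervals, the LFD macrophage group with Cd9 alone is not drawn (2 barcodes), and Pi16-rich fibroblasts are highest on each diet at 749 and 522 CPM.

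Endothelial barcodes carried Stab1, Mertk, Axl and a little Lyve1. Of these 4 receptors, 1 was at least 2-fold higher on HFD and 0 at least 2-fold lower, beside 0.818% and 0.803% of 6603 genes. That receptor, Lyve1, reached 50 UMIs only through HFD, where it is high, so nothing is read from the count. Stab1 had 63.5 CPM on LFD (83 UMIs in 53 of 149 barcodes) and 84.4 CPM on HFD (123 UMIs in 60 of 207 barcodes), a ratio of 1.33 (0.998 to 1.78). Of the HFD UMIs, 35 were in a single barcode. Leaving out barcodes with lymphatic markers, a step chosen after the data had been seen, gave 63.8 and 60.0 CPM. Mertk had 19.9 and 30.2 CPM, a ratio of 1.52 (0.915 to 2.57), and Axl 27.5 and 30.2 CPM, a ratio of 1.10 (0.690 to 1.75). All 3 intervals took in equality.

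Lymphatic barcodes held most of the endothelial Lyve1. It had 11.5 CPM on LFD (15 UMIs) and 74.8 CPM on HFD (109 UMIs), 6.52-fold higher (3.78 to 12.05), but 84 of the HFD UMIs were in a single barcode. With the study's limits on genes and mitochondrial UMIs the direction turned, to a log2 ratio of -3.67 from 2.70. As the LFD class held only 15 Lyve1 UMIs before those limits, the value of -3.67 rests on few UMIs. Barcodes with at least 3 UMIs of Prox1, Mmrn1 and Ccl21a together, 2 on LFD and 3 on HFD, held 10 and 92 of the 15 and 109 Lyve1 UMIs. Without them Lyve1 had 3.84 CPM on LFD (5 UMIs) and 12.01 CPM on HFD (17 UMIs). The 6 lymphatic genes summed to 132 and 568 CPM in the class, led by Ccl21a. Mrc1 had 1 UMI on LFD and 10 on HFD in endothelial barcodes, 0.765 and 6.86 CPM, a ratio of 8.97 (1.28 to 389). Of the 10, 6 were in lymphatic barcodes, and without these the ratio was 3.68 (0.364 to 181), which takes in equality. Cd163 had 1 UMI on LFD and 0 on HFD, and Msr1 had 1 on each. Timd4, Folr2 and Marco had 0 UMIs there on either diet, which allows up to 2.29 CPM on LFD and 2.06 CPM on HFD.

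Timd4 was also found in dendritic barcodes. The class (at least 2 UMIs of Flt3 and Zbtb46 together) was small, with 6 LFD and 9 HFD barcodes. Timd4 had 11 UMIs on LFD and 7 on HFD there, or 193 CPM (96.1 to 344) and 101 CPM (40.5 to 207), in 4 barcodes of each library. Of these, 4 on LFD and 3 on HFD also had a UMI of Xcr1 or Clec9a, genes of cross-presenting dendritic cells. Among unclassed barcodes 4 on LFD and 8 on HFD had Timd4, of which 1 and 7 had Xcr1 or Clec9a. Outside the 3 classes and the mixed barcodes lay 15 of 192 Timd4 UMIs on LFD (7.81%) and 22 of 75 on HFD (29.3%), while macrophages held 174 and 53. Of the 5 dendritic genes, Xcr1, Clec9a and Flt3 were at 0 in the macrophage class on both diets, while Zbtb46 had 11 UMIs on LFD and 7 on HFD and Cd209a 194 and 71.8 CPM.

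Ligands and bridging molecules of these receptors were also read in macrophages. Of 11 listed, 7 had enough UMIs in macrophages, and 5 were at least 2-fold higher and 1 at least 2-fold lower on HFD, with a median log2 ratio of 2.40, beside 5.36% and 5.9% of all genes. Of the 5, Thbs1 (5 UMIs on LFD, 52 on HFD) and Hp (6 and 58) passed the limit of 50 UMIs only through HFD, where they are high, and the median is the value of Thbs1, so nothing is read from the count or the median. Gas6, the bridge to Mertk and Axl, was that lower ligand, with 824 CPM on LFD and 379 CPM on HFD. Like Lyve1 it did not differ that way in Cd209-positive, Cd9-negative macrophages, at 959.8 and 1120.0 CPM. Mfge8, which links phosphatidylserine to integrins, had 14.8 and 123 CPM, and 221 CPM in HFD macrophages with Cd9 alone. Of its 359 HFD UMIs 79 were in a single barcode, and it was seen in 9.13% of LFD and 14.6% of HFD macrophages, or 2.67 and 3.44% after thinning. Anxa1, which coats apoptotic cells, had 109 and 894 CPM. Lgals3, a galectin that can bridge to Mertk, had 534 and 5649.9 CPM. Thbs1, a bridge to Cd36 and integrins, had 3.36 and 17.8 CPM and haptoglobin (Hp), which carries haemoglobin to Cd163, 4.04 and 19.8 CPM.

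Other scavenger and efferocytosis receptors were read beside the same shares of all genes (5.36% higher and 5.9% lower). Of 17 other scavenger receptors listed, 16 were in the tables by symbol and 7 had enough UMIs in macrophages, with 1 at least 2-fold lower, 0 higher and a median log2 ratio of 0.73. Colec12, a scavenger receptor of collagen type, was that lower receptor, at 70.0 CPM on LFD and 26.0 CPM on HFD. Of 21 other efferocytosis receptors and engulfment genes, 13 had enough UMIs, with 4 at least 2-fold higher, 0 lower and a median of 0.21. The lipid receptor Trem2 had 100.2 CPM on LFD and 1018 CPM on HFD. The integrin chains Itgav and Itgb5, which bind Mfge8, had 12.8 and 45.4 CPM and 17.5 and 80.6 CPM. Cd300a, an inhibitory phosphatidylserine receptor, had 104 and 227 CPM. Within Cd209-positive, Cd9-negative macrophages Itgav had 12.4 and 7.10 CPM and Mfge8 15.7 and 15.6 CPM. Colec12, lower on HFD in all macrophages together, was not lower there, at 84.3 and 104 CPM on 102 and 73 UMIs. Trem2 (119 and 339 CPM), Lgals3 (417 and 811 CPM) and Anxa1 (98.4 and 155 CPM) were higher on HFD there. So were Cd300a (107 and 145 CPM) and Hp (4.13 and 25.6 CPM, on 5 and 18 UMIs). Itgb5 had 18.2 and 28.4 CPM on 22 and 20 UMIs. The intervals of both diets overlapped for Itgb5 (11.4 to 27.5 and 17.3 to 43.8 CPM) and for Cd300a (89.0 to 127 and 118 to 176 CPM). Thbs1 had 1 UMI on LFD and 0 on HFD, so not all of these genes were higher on HFD there.

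In fibroblasts 7 ligands had enough UMIs, with 1 at least 2-fold higher, 0 lower and a median of 0.02, beside 1.29% and 2.26% of all genes. It was Thbs1, at 343 CPM on LFD and 734 CPM on HFD. Gas6 was level there, at 284 and 288 CPM, beside the lower Axl. Of 9 other scavenger receptors in fibroblasts 0 were past 2-fold in either direction (median 0.33). Of 12 efferocytosis and engulfment genes 1 was lower, Trem2 at 22.2 and 4.88 CPM, which reached 50 UMIs only through LFD, and 0 higher (median -0.14). In endothelial barcodes 0 of 7, 0 of 6 and 0 of 9 genes of the 3 lists were past 2-fold, with medians of 0.50, 0.21 and 0.08, beside 0.818% higher and 0.803% lower of all genes. Counts of 0 or 1 among so few genes say little beside such shares.

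Genes with profiles like those of the receptors were sought over 12 groups: fibroblasts, endothelial barcodes and 4 kinds of macrophage in each diet. The measure was Pearson's r of log2(CPM + 10) among 9328 genes with at least 100 UMIs. The groups come from 2 libraries and some are small (2 barcodes in each of the LFD Cd9-positive groups), so r is a description. Lyve1 was most like Zfhx3 (r = 0.951), Sema4a and Etv1. Timd4 was most like Cd209a (0.964) and Cd209g, neighbours in kind of the genes that mark Cd209-positive macrophages, and A230046K03Rik. Cd163 was most like the chemokine Ccl24 (0.981), Slc9a9 and Snx2, and Folr2 like Ms4a6b (0.994), Ninj1 and Fxyd2. For Mrc1 the closest were Clec10a (0.993), another lectin of macrophages, Pld4 and the growth factor receptor Csf1r. Stab1 was closest to Stard8 (0.988), Chp2 and Tfrc, the transferrin receptor. Msr1 was closest to Prkcb (0.992), Cd37 and Clta. Mertk was closest to Picalm (0.952), Herc4 and Adam15. Axl, with its fibroblast profile, was closest to Rpl21 (0.921), Cxcl1 and Ptgs2. Its r with the other receptors was negative in each case, from -0.39 with Msr1 to -0.78 with Mertk, while Lyve1 had r = 0.917 with Stab1 and 0.901 with Cd163. The groups span cell types, and Axl was highest in fibroblasts, where the other receptors had few UMIs. These values of r thus do not describe macrophages alone.

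Promoters of 8 of the 10 receptors were matched by symbol in a table of RefSeq promoters (GRCm38.p6), with 2 starts for Folr2, each from 250 bases before to 50 after the start. Lyve1 and Msr1 had no entry in the table used. The windows were searched on both strands for GAGGAAG, an ETS site of the PU.1 type, and for TGACTCA, an AP-1 site. GAGGAAG was in 3 of the 9 windows (Mrc1, Marco and Axl) and in 13.6% of all 32851 promoters of this length. TGACTCA was in 1 of the 9 (Folr2) and in 5.20% of all. The windows of Mrc1 and Axl and that of Folr2 with TGACTCA are shown because Folr2 and Mrc1 lay mainly in macrophages and Axl mainly in fibroblasts. Capitals mark the matched letters, which read in reverse complement (CTTCCTC) where the match is on the other strand. A match is no evidence of binding.
Folr2 (chr7:101845282-101845581, minus strand): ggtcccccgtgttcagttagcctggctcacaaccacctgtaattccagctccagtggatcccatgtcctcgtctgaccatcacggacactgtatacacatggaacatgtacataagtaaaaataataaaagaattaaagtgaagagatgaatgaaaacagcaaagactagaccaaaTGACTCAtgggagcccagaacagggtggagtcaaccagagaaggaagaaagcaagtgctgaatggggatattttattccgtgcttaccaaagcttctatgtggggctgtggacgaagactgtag
Mrc1 (chr2:14229164-14229463, plus strand): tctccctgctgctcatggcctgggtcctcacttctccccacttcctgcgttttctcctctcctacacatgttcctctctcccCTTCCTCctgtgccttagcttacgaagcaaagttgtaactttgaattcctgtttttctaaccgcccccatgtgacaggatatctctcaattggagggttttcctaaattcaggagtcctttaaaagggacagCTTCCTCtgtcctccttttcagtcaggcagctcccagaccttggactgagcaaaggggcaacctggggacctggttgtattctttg
Axl (chr7:25788684-25788983, minus strand): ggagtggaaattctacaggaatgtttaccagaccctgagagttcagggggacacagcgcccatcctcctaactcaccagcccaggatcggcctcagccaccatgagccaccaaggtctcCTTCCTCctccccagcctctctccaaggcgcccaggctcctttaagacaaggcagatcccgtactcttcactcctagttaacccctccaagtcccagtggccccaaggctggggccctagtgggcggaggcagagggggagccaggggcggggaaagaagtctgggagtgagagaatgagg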

How the data were processed

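The counts are UMI tables deposited by the authors, who made them from the reads with Cell Ranger (version 3.0.2 in the file headers; the methods name a later release) on mm10. They were used as deposited, without normalization, batch correction or clustering. Barcodes with at least 200 genes were kept, UMIs were summed within each class and library, and sums were scaled to CPM. Intervals are exact at 95% (Poisson for counts, Clopper-Pearson for shares, conditional binomial for ratios) and cover counting error only. Genes with at least 50 UMIs over both groups of a comparison were counted at 2-fold. The receptors detected are named in each main comparison. Of 3 further lists (ligands and bridging molecules, other scavenger receptors, other efferocytosis receptors and engulfment genes), genes past 2-fold are named. The receptors and lists were chosen with earlier results of these data known. Doublets were not removed beyond the mixed barcodes; Scrublet (expected rate 1%) marked 11 LFD and 24 HFD barcodes, 8 and 16 of them mixed, which were left out in an alternative. For detection, barcodes were thinned to 1000 UMIs (seed 7). Python 3.11.15, numpy 2.4.6, scipy 1.17.1, pandas 2.3.3, scanpy 1.11.5 (Scrublet) and matplotlib 3.10.9 were used.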

Additional observations from a re-analysis of the deposited data

Results flagged for a closer look

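Lyve1 had a log2 ratio, HFD over LFD, of -1.55 in macrophages and of 2.70 in endothelial barcodes, where lymphatic barcodes hold most of its UMIs. The study's limits turn the endothelial value to -3.67, on few UMIs, and the difference between the classes was not tested. Mrc1 had -1.05 in macrophages and 3.17 in endothelial barcodes, the latter on 1 and 10 UMIs, of which 6 of the 10 are in lymphatic barcodes (1.88 without them), and this difference was not tested. Axl had 0.99 in macrophages and -0.79 in fibroblasts, a difference that was not tested.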

How the results depend on the processing

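No paired analysis was possible because each diet has 1 library. With the study's limits (200 to 2500 genes, less than 5% mitochondrial UMIs), which leave 294 LFD and 352 HFD barcodes, macrophages were 16.7% of LFD and 20.7% of HFD barcodes (21.8 and 28.7% otherwise), LFD fibroblasts 26.2% (35.7%) and LFD endothelial barcodes 17.7% (14.1%), and Cd209-positive macrophages 75.5% on LFD (83.0%) and 19.2% on HFD (33.3%). Under the same limits fewer receptors had 50 UMIs (5 to 7 in the macrophage comparisons named here). There 1 receptor, not 0, was at least 2-fold higher in HFD macrophages; 3, not 6, were lower with Cd9; 4, not 7, were higher and 0, not 1, lower in Cd209-positive LFD macrophages, where the log2 ratio of Msr1 turned to -0.024; 0, not 1, were lower in Cd209-positive HFD macrophages; and 0, not 1, were lower on HFD in Cd209-positive, Cd9-negative macrophages. Axl in fibroblasts had a log2 ratio of -0.53 (-0.79) and endothelial Lyve1 turned to -3.67 (2.70), the latter on few UMIs.

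A C1q threshold of 20 or of 5 UMIs, or leaving out the highest barcode of each library, also gave 1 receptor, Axl, as at least 2-fold higher in HFD macrophages. Cd209-positive macrophages were 87.7% on LFD at the threshold of 20. The count of receptors at least 2-fold lower in HFD macrophages was 4, not 6, with the study's limits, with thinned classes and with the mean of each barcode's CPM, and 6 without Scrublet doublets. Equal weights for the 4 macrophage groups left 2 of 6 receptors at least 2-fold lower on HFD. Classes assigned after thinning, which also lowered the C1q threshold from 10 to 3 UMIs, gave 38.7% fibroblasts on LFD. Cd9-positive shares there were 0.441% on LFD (1.74%) and 12.5% on HFD (36.4%). Cd209-positive macrophages were at 76.7% on LFD, and 3, not 7, receptors were higher in Cd209-positive LFD macrophages. In macrophages with neither mark, 4 receptors, not 1, were lower on HFD with thinned classes, 2 with overlapping barcodes kept and 2 with the mean of each barcode's CPM.

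The other alternatives were chosen after the data had been seen. Without cycling barcodes the count of receptors at least 2-fold lower on HFD in all macrophages together was 4. With HFD macrophage groups weighted as on LFD, 1 of 6 receptors was lower and Folr2 turned to a log2 ratio of 0.10. Among Cd209-negative HFD macrophages Timd4 turned to 0.34 with Cd9, on 6 and 2 UMIs. In Pi16-rich fibroblasts Axl had -0.52. Without lymphatic barcodes endothelial Stab1 had -0.087 (0.41). Why these values differ was not tested. Of 476 alternative values of single receptors, 54 changed side of 2-fold and 23 changed sign, 4 of these for a receptor past 2-fold; for the macrophage diet ratio 20 of 99 changed side.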
